A study of Mus musculus with 6 samples.

Results

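The genes described here are 39 components of the mouse mitotic apparatus, the machinery that captures, aligns and separates chromosomes and then cuts the cell apart. They were found by gene symbol in the annotation of the array, with 1 feature (a probe set that reports 1 transcript cluster) per gene and the brightest feature kept where a gene had several. All 39 listed genes were found, among 19938 genes with a feature of their own. They fall into 7 kinetochore genes, 9 kinesin motors, 9 mitotic kinases and their partner subunits, 4 cytokinesis genes, 4 spindle assembly genes, 4 mitotic exit genes and 2 chromosome proteins (Mki67 and Top2a).

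The samples were multipotent progenitors (MPPs), the short-lived descendants of hematopoietic stem cells, sorted from bone marrow as lineage-negative, Sca1+, c-Kit+, CD34+ and, in the submitters' spelling, Flt2+ cells. One group of 3 arrays was labelled Lxn-/-, from mice with exons 2 to 4 of latexin (Lxn, a carboxypeptidase inhibitor) deleted, and the other group of 3 was labelled WT, from mice with the gene intact. Both groups were C57BL/6 mice labelled female and 8 to 12 weeks old, and each array was hybridised with 100 ng of RNA from about 100000 cells pooled from 10 to 20 mice. A pool hides the spread between single mice.

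In a dividing cell, the kinetochore assembles on centromeric chromatin and binds spindle microtubules, while the spindle assembly checkpoint (Bub1, Bub1b, Ttk and Mad2l1) holds back the anaphase-promoting complex until every chromosome is attached. Kinesins slide, depolymerise or bundle the microtubules, Aurora and Polo kinases correct faulty attachments, and the central spindle then recruits the contractile ring. Most of these genes are transcribed as one wave in G2 and M phase from promoters that carry CCAAT boxes, bound by NF-Y, and a cell cycle homology region (CHR), bound by the DREAM and MuvB complexes. Multipotent progenitors divide more often than stem cells.

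The promoter windows of the genes share those 2 motifs. RefSeq windows on build GRCm38.p6, from 250 bases before to 50 after the annotated start, were on hand for 34 of the 39 genes (all but Aurkb, Incenp, Kif20a, Spc24 and Tpx2). CCAAT, or ATTGG on the other strand, lay in 26 of the 34 windows (76.5%), against 37.9% of the windows of 27025 genes. The letters TTTGAA, or TTCAAA on the other strand, are the core of the CHR and lay in 27 of the 34 windows (79.4%), against 18.1% of all windows. Both motifs stood together in 23 windows (67.6%), against 7.12% of all windows. One window is printed for each of 4 roles, that of the gene with the smallest p-value in the array comparison among those that hold both motifs, in lower case with matches of either motif on either strand in capitals. Spc25, a subunit of the NDC80 complex, is on the minus strand at chr2:69206164-69206463, and Kif4, a chromosome-bound kinesin, on the plus strand at chrX:100625815-100626114. Cdca8 (borealin, a subunit of the Aurora B complex) is on the minus strand at chr4:124936868-124937167, and Ect2, the RhoA activator of cytokinesis, on the minus strand at chr3:27153829-27154128. In the Cdca8 window a TTTGAA match and an ATTGG match share a letter.
Spc25: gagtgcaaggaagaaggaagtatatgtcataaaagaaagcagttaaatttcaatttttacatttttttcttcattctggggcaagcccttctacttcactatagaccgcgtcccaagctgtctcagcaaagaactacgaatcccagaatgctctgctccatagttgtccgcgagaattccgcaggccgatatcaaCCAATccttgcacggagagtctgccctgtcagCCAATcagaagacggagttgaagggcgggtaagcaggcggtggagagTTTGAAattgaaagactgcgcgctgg
Kif4: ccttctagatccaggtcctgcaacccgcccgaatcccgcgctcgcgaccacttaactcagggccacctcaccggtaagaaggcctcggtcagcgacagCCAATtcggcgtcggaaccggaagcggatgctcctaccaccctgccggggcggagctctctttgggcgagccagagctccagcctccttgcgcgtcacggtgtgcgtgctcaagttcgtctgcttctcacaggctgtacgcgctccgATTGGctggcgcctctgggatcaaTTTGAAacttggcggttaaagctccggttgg
Cdca8: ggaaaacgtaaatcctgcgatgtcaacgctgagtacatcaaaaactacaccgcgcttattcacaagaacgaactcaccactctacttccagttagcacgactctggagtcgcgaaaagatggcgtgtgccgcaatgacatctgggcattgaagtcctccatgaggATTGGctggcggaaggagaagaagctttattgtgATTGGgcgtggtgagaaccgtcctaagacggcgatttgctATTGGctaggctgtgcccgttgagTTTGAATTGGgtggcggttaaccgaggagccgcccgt
Ect2: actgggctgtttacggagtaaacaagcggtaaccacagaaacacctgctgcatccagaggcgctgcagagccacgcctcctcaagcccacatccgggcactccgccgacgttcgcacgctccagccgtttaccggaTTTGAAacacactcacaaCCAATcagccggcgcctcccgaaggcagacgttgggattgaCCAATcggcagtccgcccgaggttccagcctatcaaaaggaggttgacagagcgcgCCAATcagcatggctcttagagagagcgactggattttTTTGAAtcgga
A match only describes the letters of the window. Matches of TTTGAA gathered at the start site, with a median position of 4.5 bases after it over the 33 matches in the mitosis genes, against a median position of -122.5 over all windows. CCAAT matches had a median position of -56 over the 59 matches in the mitosis genes, against -89 over all windows. Windows of the G1/S and replication genes, which act earlier in the cycle, held CCAAT in 68.2% of 22 but TTTGAA in 13.6%. Transport and other kinesins held both motifs in 10.5% of 19 windows. Both motifs stood in 60% of 5 windows of other mitotic kinesins, 40% of 10 of G2/M regulators, 29.0% of 31 of further kinetochore genes and 9.09% of 11 of other mitotic kinases. Among the 34 genes, the windows of Nuf2, Kif18a, Nusap1 and Mad2l1 held neither.

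**Figure D1:**
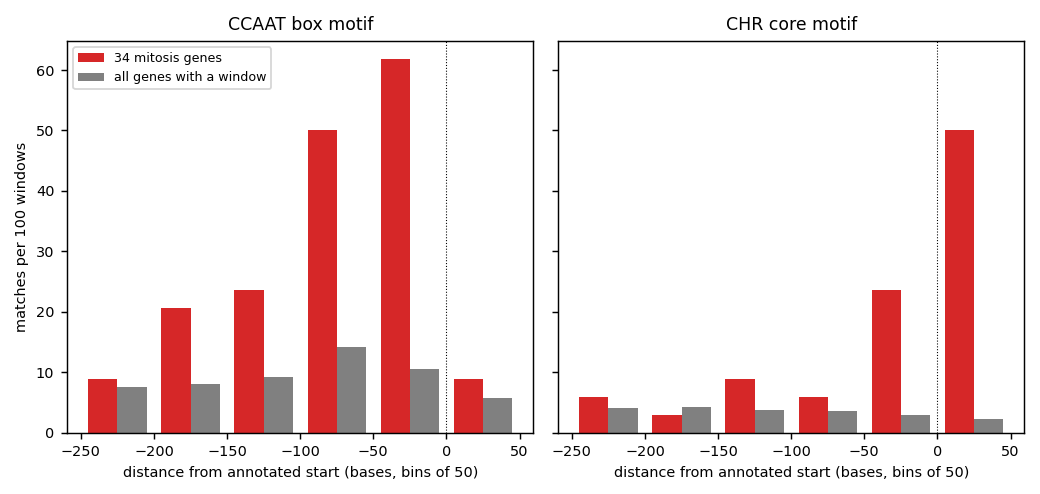
Matches of each motif per 100 promoter windows (vertical axis) in 50-base bins of distance from the annotated start (horizontal axis), for the 34 mitosis genes with a window and for all 27025 genes. TTTGAA matches of the mitosis genes lie mostly in the last bin, which holds 17 of 33, while the last bin holds 3 of the 59 CCAAT matches.

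Some facts of the whole set of arrays bear on every value. The array values correlated between 0.983 and 0.996 over all features, and no pair of arrays shared more than 18 identical values, so none was a copy. Lxn itself had log2 values of 8.03, 8.53 and 8.61 in arrays 1, 2 and 3 labelled Lxn-/-, against 8.56, 8.70 and 8.58 in WT arrays 1, 2 and 3. Its log2 difference was -0.22 (SE 0.15, adjusted p = 0.459 by limma), so its feature does not check the genotype, and no source used here gives the exons its probes cover. Xist, the RNA of the inactive X chromosome, stood at 6.86, 13.17 and 5.85 in the Lxn-/- arrays, against 13.20, 13.13 and 13.23 in the WT arrays. The Y-linked gene Eif2s3y stood at 8.57, 3.83 and 9.36 in the Lxn-/- arrays, against 3.88, 3.97 and 3.68 in the WT arrays, so arrays 1 and 3 labelled Lxn-/- carried Y-linked signal although their mice were labelled female. Values are therefore also given without these arrays. The defining markers Kit, Cd34 and Flt3 summed to 18716 to 23225 intensity units (2 raised to the log2 value) in Lxn-/- arrays, against 21736 to 22392 in WT arrays; the fourth marker, Ly6a, has no feature of its own.

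All 39 mitosis genes had a higher mean in arrays labelled Lxn-/- than in WT arrays, and none passed the test. The differences were small: the median was 0.143 on the log2 scale, or 1.10-fold, and the range ran from 0.006 to 0.341, or at most 1.27-fold, for Hmmr. Of all 23410 features tested, 42.2% had a higher mean in Lxn-/- arrays and the median difference was -0.038, while among features above the median level, where all 39 genes lie, 69.3% did and the median was 0.067. By limma with Benjamini-Hochberg adjustment over all features, 0 of the 39 genes passed an adjusted p of 0.05, against 0% of all features, and their adjusted p-values ran from 0.340 to 0.982. At an unadjusted p under 0.05 there were 2, Cdca8 and Bub1, both higher in Lxn-/- arrays, against 5.06% of all features. Every Lxn-/- array lay above every WT array for 8 of the 39 (20.5%), against 8.54% of all features and 15.8% of those above the median level: Nuf2, Mad2l1, Aurkb, Cdca8, Nek2, Hmmr, Cdca3 and Ube2c. The difference was larger than 2 SE for 5 genes and smaller than 1 SE for 15, with a median SE of 0.103. Intervals of 95% reached from -0.316 at the lowest to 0.699 at the highest, and they excluded 0 for 2 of the 39 genes. A level as low as 0.80-fold (Cenpa) or as high as 1.62-fold (Hmmr) is thus within the interval of at least 1 gene. In bulk RNA, more cells in mitosis and more mitotic RNA per cell cannot be told apart, and since RMA scales the arrays to each other, total RNA per cell was not measured.

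**Figure D2:**
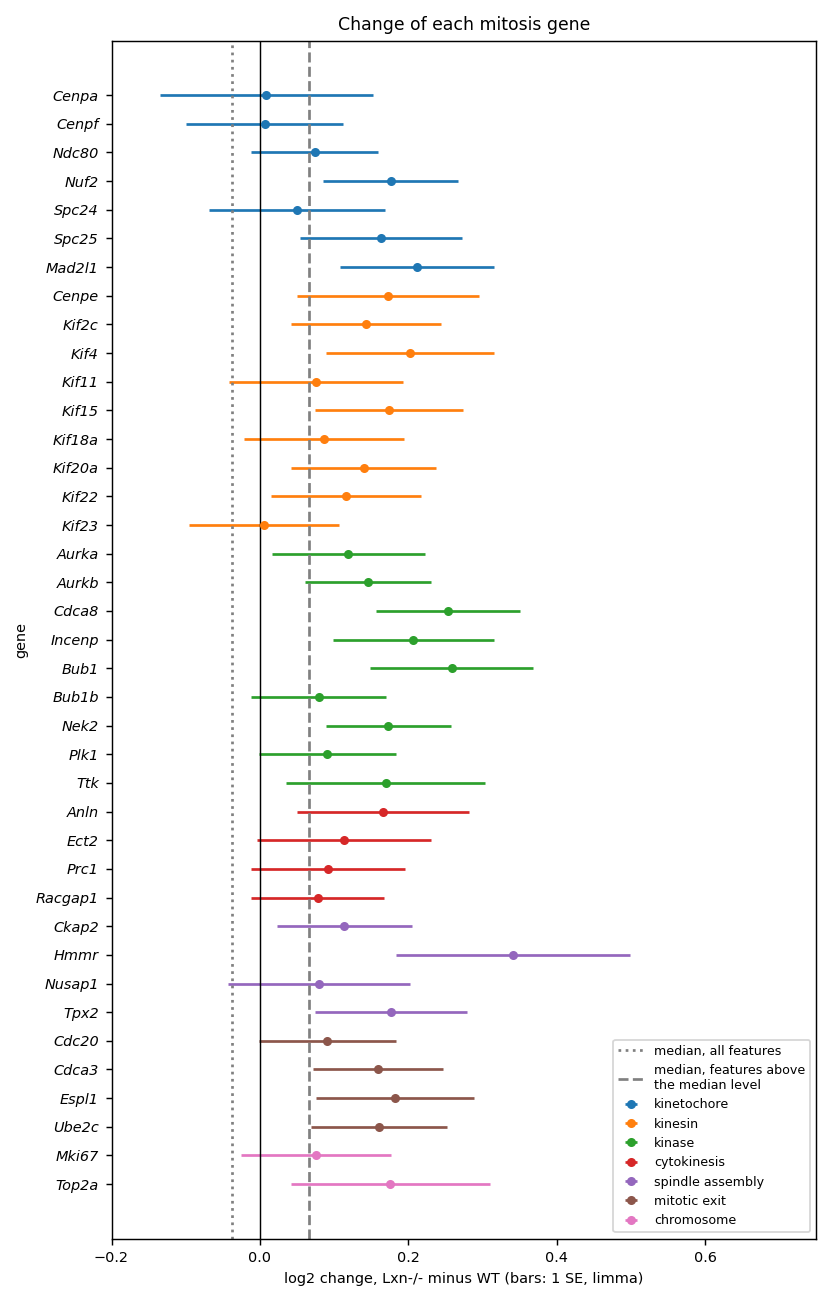
Log2 difference, Lxn-/- minus WT, of each of the 39 mitosis genes (points) with 1 SE from limma (bars), grouped by role, beside the median of all tested features (dotted line) and of features above the median level (dashed line). All points lie to the right of 0, from 0.006 to 0.341, and the dashed line stands at 0.067.

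How the 39 genes lay across the arrays depended on single arrays. Taken relative to each gene's WT mean, their median stood at 0.061, 0.202 and 0.140 in arrays 1, 2 and 3 labelled Lxn-/-, against 0.090, -0.134 and 0.054 in WT arrays 1, 2 and 3 (0.134 ± 0.071 and 0.003 ± 0.121, SD, n = 3 each). The groups overlapped, since Lxn-/- array 1 lay below WT array 1. Lxn-/- array 2, the one without Y-linked signal, held the highest value of all 6 arrays for 21 of the 39 genes, against 13.8% of all features. WT array 2 held the lowest value for 31 of the 39 (79.5%), against 16.3% of all features. Without WT array 2 the median difference was 0.073 and 33 of the 39 genes (84.6%) had a higher mean in Lxn-/- arrays. Features above the median level then had a median of 0.066 with 71.5% higher, and of all features 45.8% were higher. Leaving out arrays 1 and 3 labelled Lxn-/- gave 0.202 and 38 genes, against 0.083 and 74.9% for features above the median level. Leaving out Lxn-/- array 2 gave 0.098 and 35 genes, against 0.054 and 63.8% for those features. Just the Lxn-/- arrays with Y-linked signal then remain. Genotype and that signal cannot be told apart there. Quantile normalization was applied to the tested features on top of the RMA normalization by the authors. After it the median was 0.055 with 27 of 39 genes higher (69.2%). For comparison, 47.1% of all features and 50.2% of those above the median level were then higher, and the median of the latter was 0.000. The spread within groups was a median SD of 0.098 in Lxn-/- arrays and 0.129 in WT arrays, and it was larger in Lxn-/- arrays for 12 of the 39 genes.

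**Figure D3:**
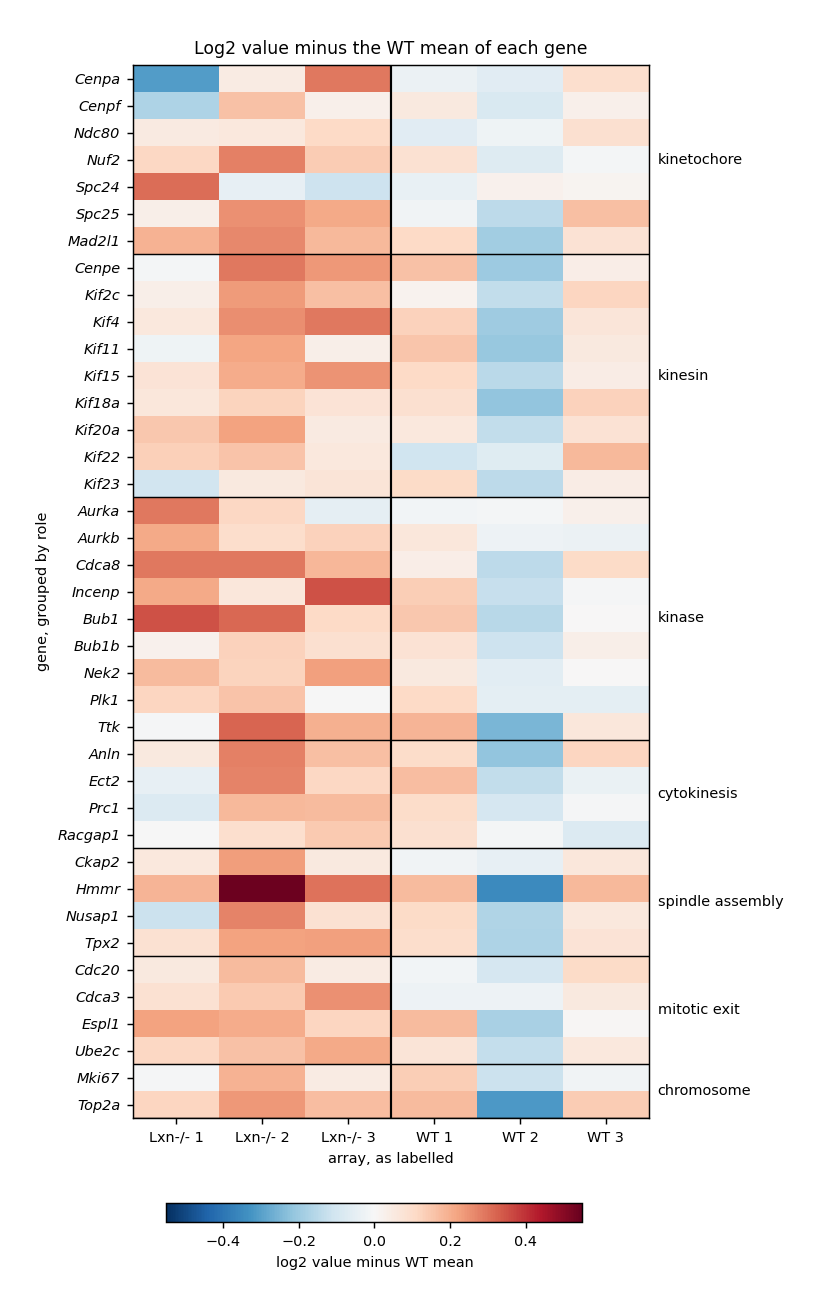
Heat map of the 39 mitosis genes (vertical axis, grouped by role) in the 6 arrays (horizontal axis, Lxn-/- arrays left of WT arrays), coloured by log2 value minus the WT mean of each gene on a scale cut off at ±0.55. WT array 2 is the lowest array for 31 genes and Lxn-/- array 2 the highest for 21.

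Markers of other cell types also differed between the arrays. Direction went with level: 42.2% of all features had a higher mean in Lxn-/- arrays, against 69.3% of those above the median level. Features below that level thus mostly had a lower mean. Some of these markers were dimmer than every mitosis gene. Ppbp had means of 6.74 in Lxn-/- and 7.23 in WT arrays, and Gata1 7.46 and 7.81. Others, such as Prss34 (10.03 and 11.05), were not. The 6 measured of 7 erythroid markers summed to 1558 to 2924 intensity units in Lxn-/- arrays, against 2778 to 5191 in WT arrays, with the 5191 in WT array 2, where the mitosis genes were lowest. WT array 2 also held the highest value for 30.2% of all features, the largest share of any array. The 5 measured of 6 megakaryocyte markers summed to 1134 to 1402 in Lxn-/- arrays, against 1436 to 1882 in WT arrays, and the 5 mast cell and basophil markers to 1839 to 4357, against 4949 to 5736. The 5 measured of 6 long-term stem cell markers summed to 2257 in Lxn-/- array 1 and to as much as 4433 in the others, against 4094 to 4777 in WT arrays. Sums of mature lymphoid markers were low, at 149 to 165 units in Lxn-/- arrays for 2 measured of 3 B cell genes, against 146 to 234 in WT arrays, and at 332 to 463 for 3 T cell genes, against 352 to 399. Of 4 macrophage markers only Cd68 had a higher mean in Lxn-/- arrays (0.32), while C1qa (-0.27), Mrc1 (-0.40) and Adgre1 had lower means, with a median difference of -0.249 and summed levels of 1390 to 1468 units in Lxn-/- arrays, against 1148 to 1432 in WT arrays. The 4 early lymphoid markers, all with a higher mean in Lxn-/- arrays, had per-array medians of 0.061, 0.374 and 0.253 in Lxn-/- arrays, against 0.169, -0.152 and 0.038 in WT arrays, relative to the WT mean. They were thus highest and lowest in the same arrays as the mitosis genes, and summed to 6193 to 7436 units in Lxn-/- arrays, against 5182 to 6338 in WT arrays. Among 6 granulocyte and monocyte markers 4 had a higher mean in Lxn-/- arrays, such as Csf1r (0.50) and Ctsg (0.35), and 2 a lower mean. After quantile normalization 3 of the 6 were higher, with a median of 0.060. The 6 markers summed to 22573 to 28597 units in Lxn-/- arrays, against 19224 to 26105 in WT arrays. The 14 immediate early genes had per-array medians of 0.395, -0.319 and 0.428 in Lxn-/- arrays, against -0.037, 0.154 and -0.155 in WT arrays, so the arrays with Y-linked signal stood above the rest. Array values have no true 0, so no marker can be said to be absent. All 9 measured of 10 heat shock genes had a higher mean in Lxn-/- arrays (median difference 0.409, and 0.185 without arrays 1 and 3). The part of these markers in the differences of the mitosis genes was not tested.

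The median differences of the roles depended on single arrays, and their order did not hold. Without WT array 2 they were 0.062 for kinetochore genes, 0.073 for kinesins, 0.131 for kinases, 0.052 for cytokinesis, 0.091 for spindle assembly, 0.094 for mitotic exit and 0.017 for the chromosome proteins. Without Lxn-/- arrays 1 and 3 the same roles had 0.161, 0.218, 0.129, 0.225, 0.252, 0.167 and 0.214, so the kinases, highest with all arrays, were then lowest. Features above the median level had a median of 0.066 without WT array 2, above that of the kinetochore, cytokinesis and chromosome roles. Without Lxn-/- arrays 1 and 3 those features had 0.083, below every role.

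Kinetochore genes had a median difference of 0.074 over 7 genes, which was -0.002 after quantile normalization, 0.167 without Lxn-/- array 1, 0.132 without Lxn-/- array 3, 0.117 without WT array 3 and 0.043 without WT array 1. Cenpa, the histone H3 variant that marks the centromere, had log2 values of 10.02, 10.38 and 10.62 in arrays 1, 2 and 3 labelled Lxn-/-, against 10.30, 10.27 and 10.42 in WT arrays. Its Lxn-/- arrays held both the lowest and the highest of the 6 values, and the log2 difference of 0.01 (SE 0.14, adjusted p = 0.981) was -0.075 after quantile normalization. Cenpf, a large corona protein of the kinetochore, differed by 0.01 (SE 0.11, -0.068 after quantile normalization), with 9.12, 9.46 and 9.32 in Lxn-/- arrays, against 9.35, 9.21 and 9.32 in WT arrays. Ndc80, Nuf2, Spc24 and Spc25 together form the rod that grips the microtubule. Nuf2 had 9.67, 9.84 and 9.70 in Lxn-/- arrays, against 9.64, 9.49 and 9.55 in WT arrays, so the groups did not overlap (difference 0.18, SE 0.09, adjusted p = 0.380). Spc24 had 9.23, 8.88 and 8.81 in Lxn-/- arrays, against 8.89, 8.95 and 8.94 in WT arrays. Lxn-/- array 1 held the highest value and the other Lxn-/- arrays lay below all WT arrays. The difference of 0.05 (SE 0.12) was -0.025 after quantile normalization and -0.043 without Lxn-/- arrays 1 and 3. Spc25 had 8.80, 9.02 and 8.98 in Lxn-/- arrays, against 8.75, 8.63 and 8.94 in WT arrays, an overlap with a difference of 0.16 (SE 0.11, adjusted p = 0.456). Ndc80 itself had 9.30, 9.30 and 9.36 in Lxn-/- arrays, against 9.18, 9.22 and 9.33 in WT arrays, for 0.07 (SE 0.09, -0.0024 after quantile normalization). Mad2l1, the checkpoint protein that sequesters Cdc20, had 11.48, 11.56 and 11.47 in Lxn-/- arrays, against 11.40, 11.10 and 11.37 in WT arrays. The groups did not overlap, the difference was 0.21 (95% interval -0.02 to 0.45, adjusted p = 0.365), and it was 0.12 without WT array 2.

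The 9 kinesins had a median difference of 0.140, and for none of them did the groups separate. Kif4, which condenses chromosomes and shapes the midzone and is the only X-linked gene of the 39, differed by 0.20 (SE 0.11, adjusted p = 0.402). It had 9.19, 9.39 and 9.43 in Lxn-/- arrays, against 9.26, 8.94 and 9.20 in WT arrays, so the array with Y-linked signal numbered 3 held the highest value and number 1 lay below WT array 1. Cenpe, the motor that carries chromosomes to the plate, had 9.54, 9.84 and 9.79 in Lxn-/- arrays, against 9.71, 9.36 and 9.59 in WT arrays (difference 0.17, SE 0.12). Kif15, a spindle motor that can replace Kif11, had 10.06, 10.18 and 10.23 in Lxn-/- arrays, against 10.09, 9.83 and 10.02 in WT arrays (difference 0.17, SE 0.10). Kif11, the Eg5 motor that pushes the poles apart, was higher in WT array 1 than in Lxn-/- arrays 1 and 3. It had 11.15, 11.40 and 11.21 in Lxn-/- arrays, against 11.33, 10.97 and 11.23 in WT arrays, and its difference of 0.08 (SE 0.12) was -0.0051 after quantile normalization. Kif2c, the depolymerase that frees wrong attachments, Kif20a, a late motor of the cleavage furrow, and Kif22, a motor on chromosome arms, differed by 0.14 (SE 0.10), 0.14 (SE 0.10) and 0.12 (SE 0.10). Kif18a, which damps chromosome oscillation, differed by 0.09 (SE 0.11) and by -0.021 without WT array 2. Kif23, the motor of the centralspindlin complex, was the closest to 0 of all 39 genes, with 10.84, 11.00 and 11.01 in Lxn-/- arrays, against 11.05, 10.80 and 10.99 in WT arrays (difference 0.01, SE 0.10, -0.08 after quantile normalization).

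Mitotic kinases and their partners had a median difference of 0.169 over 9 genes, and 0.129 without Lxn-/- arrays 1 and 3. As for the mitotic exit genes, their per-array medians did not overlap between groups (0.207, 0.129 and 0.128 in Lxn-/- arrays, against 0.081, -0.112 and 0.004 in WT arrays). This was not particular to these roles. Medians of all features above the median level did not overlap either (0.026, 0.083 and 0.083 in Lxn-/- arrays, against 0.001, 0.004 and -0.001 in WT arrays). No test compared the roles. Cdca8, which anchors Aurora B to the centromere, had 9.70, 9.71 and 9.60 in Lxn-/- arrays, against 9.45, 9.27 and 9.52 in WT arrays. The groups did not overlap, and the difference of 0.25 (SE 0.10, 95% interval 0.03 to 0.47) had an unadjusted p of 0.0277 and an adjusted p of 0.340. It was 0.18 without WT array 2 and 0.17 after quantile normalization. Bub1, the checkpoint kinase that marks the inner centromere, had 10.99, 10.95 and 10.75 in Lxn-/- arrays, against 10.79, 10.49 and 10.64 in WT arrays. Lxn-/- array 3 lay below WT array 1, and the difference was 0.26 (SE 0.11, unadjusted p = 0.0431, adjusted p = 0.344). The kinase and scaffold of the same Aurora B complex differed less: Aurkb, whose groups did not overlap, had 11.89, 11.77 and 11.80 in Lxn-/- arrays, against 11.74, 11.65 and 11.64 in WT arrays (difference 0.15, SE 0.08), and Incenp differed by 0.21 (SE 0.11). Nek2, a centrosome-splitting kinase, had tight groups, with 9.38, 9.33 and 9.43 in Lxn-/- arrays, against 9.26, 9.15 and 9.21 in WT arrays (difference 0.17, SE 0.08, unadjusted p = 0.0703, adjusted p = 0.365). Aurka, the spindle-pole kinase, had 10.19, 10.02 and 9.85 in Lxn-/- arrays, against 9.88, 9.89 and 9.93 in WT arrays, so array 3 lay below the WT arrays and the groups overlapped (difference 0.12, SE 0.10). Plk1, the Polo kinase of mitotic entry, differed by 0.09 (SE 0.09), Ttk, the Mps1 checkpoint kinase, by 0.17 (SE 0.13), and Bub1b, the BubR1 checkpoint component, by 0.08 (SE 0.09), each with overlapping groups. Bub1b and Plk1 stood at -0.006 and -0.0021 after quantile normalization.

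Cytokinesis genes had a median difference of 0.103 with overlapping groups in all 4. It was 0.185 without Lxn-/- array 1, 0.059 without Lxn-/- array 2, 0.171 without WT array 1 and 0.052 without WT array 2. Anln, the anillin scaffold of the contractile ring, had 9.91, 10.13 and 10.02 in Lxn-/- arrays, against 9.96, 9.64 and 9.98 in WT arrays (difference 0.17, SE 0.12, adjusted p = 0.470). Ect2 had 10.71, 11.03 and 10.87 in Lxn-/- arrays, against 10.93, 10.62 and 10.72 in WT arrays (difference 0.11, SE 0.12). Prc1, which bundles the antiparallel midzone, differed by 0.09 (SE 0.10), and Racgap1, the centralspindlin subunit that partners Kif23, by 0.08 (SE 0.09, -0.0083 after quantile normalization). In all 4 genes Lxn-/- array 1 lay below WT array 1.

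Spindle assembly genes held the largest difference of all 39. Hmmr, the hyaluronan-mediated motility receptor that also binds spindle microtubules, had 8.89, 9.24 and 9.00 in Lxn-/- arrays, against 8.87, 8.35 and 8.88 in WT arrays. The groups did not overlap, but Lxn-/- array 1 lay just above WT arrays 1 and 3, and WT array 2 was the lowest. The difference was 0.34 (SE 0.16, 95% interval -0.02 to 0.70, adjusted p = 0.357), and 0.17 without WT array 2. Tpx2, which targets Aurora A to the spindle, differed by 0.18 (SE 0.10, adjusted p = 0.411) with 10.02, 10.15 and 10.16 in Lxn-/- arrays, against 10.03, 9.76 and 10.01 in WT arrays. Ckap2, a spindle-stabilising protein, differed by 0.11 (SE 0.09). Nusap1, which bundles microtubules near chromosomes, differed by 0.08 (SE 0.12) and by -0.0063 after quantile normalization.

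Genes of mitotic exit differed by a median of 0.160. Cdca3, a trigger of mitotic entry that is degraded in G1, had 9.53, 9.59 and 9.70 in Lxn-/- arrays, against 9.42, 9.42 and 9.50 in WT arrays, and Ube2c, the ubiquitin carrier of the anaphase-promoting complex, had 10.32, 10.37 and 10.41 in Lxn-/- arrays, against 10.28, 10.08 and 10.27 in WT arrays. Neither pair of groups overlapped, and both differences were 0.16 (SE 0.09, adjusted p of 0.397 for Cdca3 and 0.407 for Ube2c). Espl1, the separase that cleaves cohesin, had 9.28, 9.26 and 9.17 in Lxn-/- arrays, against 9.23, 8.88 and 9.06 in WT arrays (difference 0.18, SE 0.11). Cdc20, the activator that the checkpoint holds back, differed by 0.09 (SE 0.09). Mki67, the perichromosomal protein known as the Ki-67 antigen, had 12.02, 12.21 and 12.07 in Lxn-/- arrays, against 12.16, 11.90 and 12.00 in WT arrays (difference 0.08, SE 0.10). Its groups overlapped and it stood at -0.0048 after quantile normalization. Top2a, the topoisomerase that untangles sister chromatids, had 11.79, 11.91 and 11.85 in Lxn-/- arrays, against 11.85, 11.36 and 11.82 in WT arrays. WT array 2 was the lowest, and the difference of 0.18 (SE 0.13) was 0.017 without that array.

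Other genes of the same processes were taken from lists by role. Of 35 further kinetochore and centromere genes, 33 were measured, 31 had a higher mean in Lxn-/- arrays and the median difference was 0.196 (0.141 after quantile normalization, 0.092 without WT array 2); for all features the share higher was 42.2%, and 69.3% above the median level. None passed the adjusted p of 0.05 and 9 had an unadjusted p under 0.05, all higher, against 5.06% of all features. Zwilch and Zw10, of the RZZ complex that recruits dynein and the checkpoint, differed by 0.37 (SE 0.10) and 0.21 (SE 0.08), and the centromere subunit Cenpu by 0.28 (SE 0.10). All 28 measured G1/S and replication genes were higher in Lxn-/- arrays, with a median of 0.188 (0.104 after quantile normalization) and 8 at an unadjusted p under 0.05, against the same 5.06%, among them Orc1 (0.45), Rrm2 (0.39) and Gins3 (0.33). Without Lxn-/- arrays 1 and 3 there were 22 of 28 higher (78.6%) with a median of 0.099, against 74.9% and 0.083 for features above the median level. Without array 1 alone the median of the G1/S genes was 0.102, against 0.086 for those features. Per-array medians of the G1/S genes were 0.313, 0.099 and 0.135 in arrays 1, 2 and 3 labelled Lxn-/-, against 0.063, -0.087 and 0.040 in WT arrays. The G1/S genes were highest in Lxn-/- array 1, where the mitosis genes were lowest of the Lxn-/- arrays. Transport and other kinesins, listed apart from the mitotic motors, gave 11 of 24 higher with a median of -0.021. Many of them were dimmer than all 39 mitosis genes, which lie above the median level, so the lists are not matched in level. After quantile normalization they gave 16 of 24 higher with a median of 0.038, against 27 of 39 and 0.055 for the mitosis genes. Of the transport and other kinesins, Kif1a differed by -0.30 (SE 0.13), Kif5b by 0.21 (SE 0.09) and Kif24 by 0.25 (SE 0.12). Other mitotic kinases (12 of 14 higher, median 0.166, with Mastl at 0.39, SE 0.13), condensin and cohesin genes (17 of 18 higher, median 0.150) and further spindle assembly genes (17 of 21, median 0.122) were mostly higher in Lxn-/- arrays. So were other cytokinesis genes, with 7 of 8 at a median of 0.138. Anaphase-promoting complex genes (15 of 18, median 0.084), G2/M regulators (11 of 14, median 0.072, with Lin9 at 0.38, SE 0.11) and other mitotic kinesins (4 of 4, median 0.087) had lower medians. After quantile normalization these 3 lists stood at 0.007 (10 of 18 higher), -0.006 (7 of 14) and 0.024 (2 of 4). Other kinases then stood at 0.080 (8 of 14), condensin and cohesin at 0.058 (14 of 18), further spindle assembly genes at 0.047 (14 of 21) and other cytokinesis genes at 0.059 (6 of 8). Of features above the median level, 50.2% were then higher. CDK inhibitors gave 3 of 6 higher with a median of -0.044. Without WT array 2 the medians were 0.090 for other kinases, 0.085 for condensin and cohesin and 0.065 for further spindle assembly genes. Features above the median level then had a median of 0.066. Without Lxn-/- arrays 1 and 3 the other kinases gave 9 of 14 higher at 0.067, against 74.9% and 0.083 for those features. Without Lxn-/- array 3 the other cytokinesis genes stood at 0.071 and the other mitotic kinesins at 0.033, against 0.054 for those features. None of these lists held a gene with an adjusted p under 0.05, and no test compared one list with another.

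**Figure D4:**
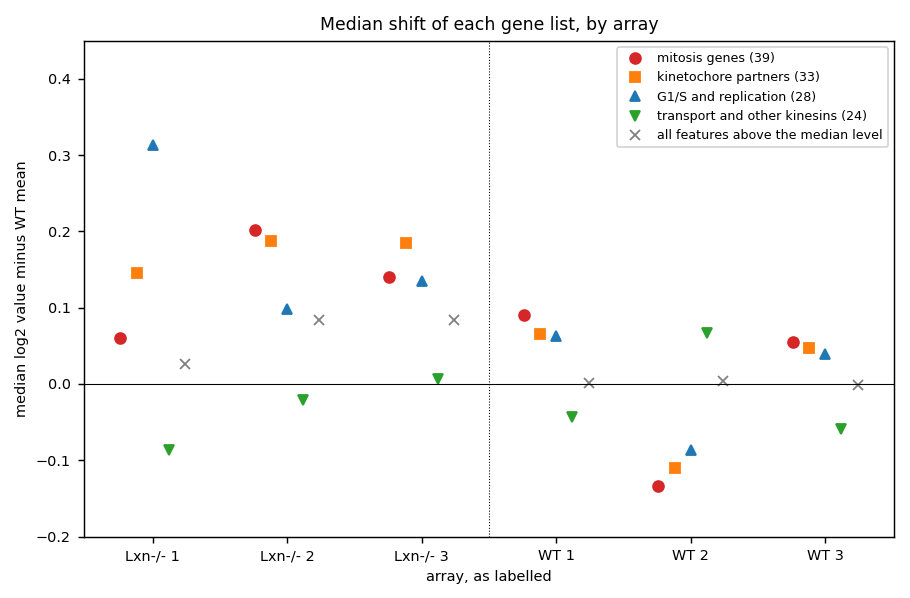
Median log2 value minus WT mean (vertical axis) of the mitosis genes, kinetochore partners, G1/S genes, transport and other kinesins and all features above the median level, in each of the 6 arrays (horizontal axis, Lxn-/- arrays left of WT arrays). G1/S genes are highest in Lxn-/- array 1 at 0.313, while the mitosis genes are highest in Lxn-/- array 2 at 0.202 and lowest in WT array 2 at -0.134.

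**Figure D5:**
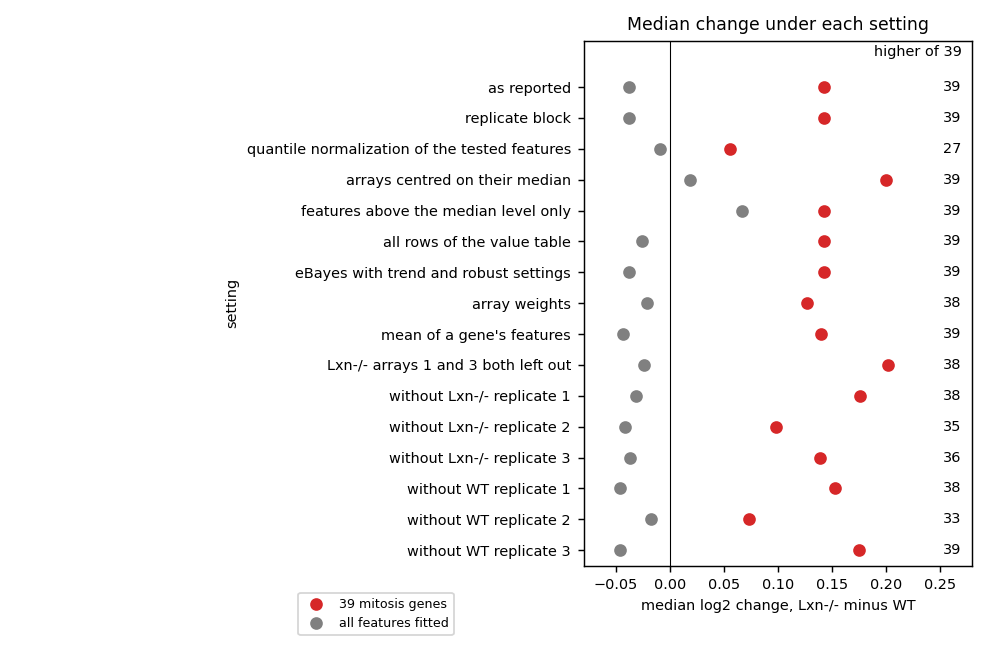
Median log2 difference, Lxn-/- minus WT, of the 39 mitosis genes and of all tested features (horizontal axis) under each way of processing or leaving out arrays (vertical axis), with the number of mitosis genes that were higher in Lxn-/- arrays. The median ranges from 0.055 after quantile normalization to 0.202 without Lxn-/- arrays 1 and 3.

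Promoter content and differences were also set side by side. The median log2 difference was 0.114 over the 23 genes whose windows held both motifs and 0.172 over the 11 others. These medians are a description of the genes, and no test compared them.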

How the data were processed

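The deposited values are on a log2 scale per array feature, normalised by the authors with RMA, per the submitters' processing notes, which also name Partek 6.0. That the scale is log2 was read from the values (2.93 to 14.78), and no source used here gives the background settings or the build of the annotation. The 6 arrays (3 labelled Lxn-/-, 3 labelled WT) were compared by a 2-sided fit of Lxn-/- minus WT without covariates in limma (version 3.58.1, R 4.3.3), using lmFit, eBayes without trend and Benjamini-Hochberg adjustment over the 23410 features that carry at least 1 gene symbol. Of 35557 features, 21789 carry 1 symbol, 1621 several and 12147 none, and no gene was named from a feature with several. The fit was also run on simulated data with independent noise and planted changes larger than those of the 39 genes. That run does not show how the fit behaves for changes as small as theirs. The mice are pooled, so p-values measure the spread between 3 pools. The number of arrays limits the precision. All 39 listed genes are named. Up to 3 genes of smallest unadjusted p are named in other lists. Genes and lists were chosen with earlier results of these data known. Promoter motifs were counted in RefSeq windows (GRCm38.p6) with Python 3.11.15, and plots were drawn with matplotlib 3.10.9. Alternatives were quantile normalization of the tested features on top of RMA, median centring, an expression filter and all features. Others were eBayes with trend, array weights, mean of a gene's features, a replicate block and leaving out arrays.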

Additional observations from a re-analysis of the deposited data

How the results depend on the processing

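Under every alternative, including an adjusted p of 0.1, 0 of the 39 genes passed; the median difference stayed positive, from 0.055 (quantile normalization) to 0.202 (without Lxn-/- arrays 1 and 3). The count at unadjusted p under 0.05 by limma, reported as 2 (5.06% of all features), was 0 after quantile normalization (3.69%). It was 7 with arrays centred on their median (9.36%) and 1 over all features of the table (4.36%). With 1 array left out it was 0 to 4: 0 without WT array 2 (2.53%), 1 without Lxn-/- array 2 (5.48%) and 4 without WT array 1 (4.34%). Each share is that of all features fitted with such a p and a higher mean in Lxn-/- arrays. The count of genes with every Lxn-/- array above every WT array, reported as 8, was 2 after quantile normalization (5.81% of all features), 13 with centred arrays (14.8%), 32 without Lxn-/- arrays 1 and 3 (27.4%), and 8 to 19 when 1 array was left out: 19 without Lxn-/- array 1 (17.5%), 13 without Lxn-/- array 3 (11.8%), 16 without WT array 1 (13.0%) and 14 without WT array 3 (13.4%). Differences of the opposite sign after quantile normalization were those of Cenpa (-0.075), Cenpf (-0.068), Ndc80 (-0.0024), Spc24 (-0.025), Kif11 (-0.0051), Kif23 (-0.08), Bub1b (-0.006), Plk1 (-0.0021), Racgap1 (-0.0083), Nusap1 (-0.0063), Cdc20 (-7.4e-05) and Mki67 (-0.0048). Spc24 was also -0.03 with array weights and -0.043 without Lxn-/- arrays 1 and 3. With 1 array left out, differences ran from -0.13 to 0.17 (Cenpa), -0.071 to 0.095 (Cenpf), -0.079 to 0.13 (Spc24), -0.028 to 0.15 (Kif11), -0.021 to 0.15 (Kif18a), -0.067 to 0.063 (Kif23) and -0.018 to 0.18 (Nusap1). The cause of these turns was not tested. Over all features, 145 passed without Lxn-/- array 2, where genotype and Y-linked signal cannot be told apart. Without Lxn-/- array 3, without WT array 3 and with the replicate block 1 each passed, against 0 as reported. The replicate block gave the same median of 0.143, 39 genes higher and 2 at unadjusted p under 0.05. Deviations of same-numbered arrays from their group means correlated at 0.0757, -0.0076 and -0.0057, and only Lxn-/- array 1 correlated best with its own number. With 3 arrays per group these values cannot decide whether the replicate numbers pair the arrays, and the labels do not say. Without both Lxn-/- arrays that carry Y-linked signal, the lone Lxn-/- array is assumed to vary like WT.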
